A study of Mus musculus with 24 samples.

Results

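Type I interferon response genes are the genes that a cell switches on when a type I interferon binds its receptor. A set of 40 of them, chosen by gene symbol with earlier results of these data known, was followed in microglia treated with bafilomycin A1. All 40 were found, each under 1 gene ID, among the 56980 genes of the count table, and 30 had enough counts to be tested beside the 12648 genes tested in all.

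The libraries came from primary microglia of WT mice. The cells were taken from cortex and hippocampus of newborn pups, grown as mixed glia, shaken off the glial layer and plated in medium that was partly conditioned by the glial flasks. In 4 groups the cells received 50 nM bafilomycin A1 (BafA1), a blocker of the proton pump that acidifies lysosomes, for 1, 7, 14 or 22 h. The 4 groups set against them received an equal volume of the solvent DMSO for the same times. All groups were of the 1 genotype, and the labels name no interferon treatment. Each of the 8 groups had 3 libraries. The labels call the 3 biological replicates but do not say whether they came from separate litters or flasks, so the p-values speak only to how much these particular samples vary.

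Type I interferons bind a receptor of 2 chains, whose kinases phosphorylate STAT2. With IRF9 it enters a complex that binds the interferon-stimulated response element (ISRE) in front of the response genes. IRF7 then raises interferon transcription itself, while USP18 damps the signal at the receptor. In the brain, microglia keep a low tonic level of this response, and a microglial state marked by these genes is known from infection, injury and ageing.

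RNA was read by a 3′ tag method with molecular identifiers, so a gene gives about 1 tag per molecule whatever its length. Totals ran between 1322113 and 4188983 counts per library, and a count of 3 corresponded to between 0.77 and 2.4 CPM (counts scaled to a common library total). The BafA1 libraries at 14 and 22 h were the deeper ones, with 2805191 to 4188983 counts against 1332056 to 3056695 for DMSO. All 16 microglial markers were detected in every group. Levels below are CPM, and the changes are log2 of BafA1 over DMSO from edgeR's quasi-likelihood test fitted on all genes. The error of a change is its standard error (SE). A gene is called at a Benjamini-Hochberg adjusted p under 0.05. Whether the counting used strand is not given in the sources used here, so tags of the called members Dtx3l, Eif2ak2, Irf7, Rtp4, Slfn2, Slfn5, Sp100 and Trim30a, and of Adar, Cxcl10, Dhx58, Ifi35, Parp9, Oas2 and Usp18, may include those of a gene on the opposite strand. Sp100 also overlaps a ribosomal RNA copy on its own strand.

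The 10 members below the low-count filter were Ifit1, Ifit3, Ifit3b, Mx1, Mx2, Oas2, Oas3, Ifi44, Usp18 and Zbp1. They include several of the genes most used as reporters of interferon exposure. Each averaged between 0.627 and 2.36 CPM and summed to between 40 and 155 counts over the 24 libraries, with no library above 21 counts. The 30 tested members averaged between 2.46 CPM and 130 CPM. The 17 genes that encode type I interferons themselves were lower still. Ifnz had the highest sum, 3 counts over the 24 libraries, Ifnb1 had 2, and 11 of the 17 had 0. These counts are too few to compare the treatments.

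Promoters are shown first, because the ISRE is the element through which the pathway is defined. RefSeq windows of build GRCm38.p6, from 250 bases before the transcription start to 50 after it, matched 29 of the 40 members. Windows were searched on both strands for GAAANNGAA as the core of the ISRE, TTCNNNGAA for the STAT dimer site (GAS), GGANNTTCC for the NF-kB element and CACGTG for the E-box. Matches may overlap each other. The 6 windows below are those with the largest changes among called members whose window held an ISRE match. Another 8 called members had a window without a match, Samhd1, Sp100, Slfn2, Irf9, Irf7, Oasl2, Dtx3l and Ifit2, and are not printed. Capitals mark ISRE matches, printed 5′ to 3′ on the strand of the gene. The windows are those of Isg15 (chr4:156200769-156201068, minus strand), Ifitm3 (chr7:141010695-141010994, minus), Ifih1 (chr2:62646206-62646505, minus), Bst2 (chr8:71537423-71537722, minus), Stat2 (chr10:128270248-128270547, plus) and Eif2ak2 (chr17:78882523-78882822, minus). Strands and starts are RefSeq's; for 4 of the 6 the bases after the start were also found in a GENCODE transcript of the gene, and for Bst2 and Stat2 they were not.
Isg15: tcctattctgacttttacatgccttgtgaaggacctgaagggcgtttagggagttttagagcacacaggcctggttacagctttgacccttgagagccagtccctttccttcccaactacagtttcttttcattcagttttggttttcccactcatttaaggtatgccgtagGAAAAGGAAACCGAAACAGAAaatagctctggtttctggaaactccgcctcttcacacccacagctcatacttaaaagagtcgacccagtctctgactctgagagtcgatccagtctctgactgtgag
Ifitm3: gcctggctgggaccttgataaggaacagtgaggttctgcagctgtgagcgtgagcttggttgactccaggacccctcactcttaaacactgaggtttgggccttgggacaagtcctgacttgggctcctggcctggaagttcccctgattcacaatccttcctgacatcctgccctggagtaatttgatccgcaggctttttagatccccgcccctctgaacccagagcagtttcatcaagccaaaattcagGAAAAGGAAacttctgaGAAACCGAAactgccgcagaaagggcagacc
Ifih1: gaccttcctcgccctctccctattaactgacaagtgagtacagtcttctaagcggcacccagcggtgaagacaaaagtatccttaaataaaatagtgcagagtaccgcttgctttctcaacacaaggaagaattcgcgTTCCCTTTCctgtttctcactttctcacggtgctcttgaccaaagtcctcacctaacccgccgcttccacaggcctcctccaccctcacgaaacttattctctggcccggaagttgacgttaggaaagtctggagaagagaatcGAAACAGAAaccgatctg
Bst2: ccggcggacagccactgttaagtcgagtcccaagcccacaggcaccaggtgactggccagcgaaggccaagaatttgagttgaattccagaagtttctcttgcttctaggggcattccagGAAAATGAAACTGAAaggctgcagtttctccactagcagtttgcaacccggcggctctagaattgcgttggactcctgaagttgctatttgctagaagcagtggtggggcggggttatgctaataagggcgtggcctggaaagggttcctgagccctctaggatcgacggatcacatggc
Stat2: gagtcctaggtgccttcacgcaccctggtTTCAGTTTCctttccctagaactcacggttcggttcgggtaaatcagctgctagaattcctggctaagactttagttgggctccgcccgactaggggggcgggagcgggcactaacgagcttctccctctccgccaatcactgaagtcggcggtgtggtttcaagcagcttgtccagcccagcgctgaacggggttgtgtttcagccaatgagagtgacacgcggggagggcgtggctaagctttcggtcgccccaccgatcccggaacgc
Eif2ak2: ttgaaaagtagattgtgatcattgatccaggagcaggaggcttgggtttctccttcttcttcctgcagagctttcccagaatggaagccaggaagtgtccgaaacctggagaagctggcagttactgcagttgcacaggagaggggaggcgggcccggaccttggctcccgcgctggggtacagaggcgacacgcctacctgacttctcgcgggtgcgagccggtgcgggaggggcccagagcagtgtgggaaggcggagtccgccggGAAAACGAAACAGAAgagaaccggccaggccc

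In the Isg15 window 3 ISRE matches overlapped head to tail, from base -78 to base -58 relative to the start. The Bst2 window had 2 overlapping matches, from -130 to -116, and the Eif2ak2 window 2 overlapping ones, from 19 to 33 after the start. Ifitm3 had 2 separate matches past its start, at 3 to 11 and 20 to 28. Ifih1 had 1 match on the other strand at -112 to -104 and 1 at 33 to 41, and Stat2 had 1 on the other strand at -221 to -213. An ISRE match was present for 18 of the 29 members, 62.1%, against 9.76% of the 27025 genes with a window. The GAS match was present for 27.6% of members against 9.55% of genes, the NF-kB match for 20.7% against 4.86%, and the E-box for 3.45% against 8.09%. Of the members called lower at 22 h, 6 of 13 with a window held an ISRE match, and of the 2 called higher Bst2 did. Oas2, Mx1, Mx2, Usp18, Dhx58, Zbp1, Parp9, Parp14, Rtp4, Ifi204 and Ifi27l2a had no window. A match is a run of letters and not evidence of binding.

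Under DMSO alone no response gene changed past the test over time. Against DMSO at 1 h, 0 of 30 members were called at 7, 14 or 22 h by edgeR's quasi-likelihood test, and 2, 1 and 2 had an unadjusted p under 0.05. Of all genes, 0.00791% were called at 7 h, 0.15% at 14 h and 0.403% at 22 h. With another scaling (RLE) or with replicate number as a block, 0 members were called as well. The median member changed by 0.13 at 7 h, -0.09 at 14 h and 0.27 at 22 h on the log2 scale. Eif2ak2, which encodes the kinase PKR, averaged 11.7 CPM at 7 h, 9.42 CPM at 14 h and 12.2 CPM at 22 h under DMSO, against 5.93 CPM at 1 h. Its change between 1 and 22 h under DMSO was log2 1.08 with adjusted p = 0.162.

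After 1 h of BafA1 no member had moved past the test. By edgeR's quasi-likelihood test 0 of 30 members were called, and 0% of all genes were higher and 0% lower. At an unadjusted p under 0.05 there were 2 members and 380 of all genes. These 2 were Oas1a, with 7.46, 6.70 and 2.89 CPM with BafA1 and 8.91, 14.1 and 6.89 CPM with DMSO, and Eif2ak2, with 11.5, 8.71 and 6.87 CPM with BafA1 and 5.27, 8.07 and 4.46 CPM with DMSO. DESeq2, limma-voom, RLE scaling, the replicate block and a fit of the 1 h libraries alone also called 0 members. The members' median log2 change was 0.05, and that of all genes 0.02.

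After 7 h of BafA1 4 of the 30 response genes fell: Isg15, Samhd1, Ifi204 and Trim30a. They encode a ubiquitin-like modifier, a nucleotide hydrolase, a DNA sensor and a ubiquitin ligase. None rose. That is 13.3% of the tested members lower and 0% higher, while 2.57% of all genes were called lower and 4.57% higher. The median member changed by -0.48, against -0.02 for all genes, and 86.7% of members had a log2 change below 0, against 51.8% of all genes. With replicate number as a block, 9 members were lower, the 5 added being Rtp4, Trim25, Dtx3l, Stat2 and Sp100. The block called more of all genes too, as counted in the last section. Each of the 4 calls ended without DMSO 7 h replicate 1, where adjusted p was 0.0958 for Samhd1, 0.101 for Ifi204, 0.124 for Isg15 and 0.257 for Trim30a. In bulk RNA, fewer cells of a type and less RNA per cell cannot be told apart.

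After 14 h 2 members rose and 3 fell. Slfn2, a Schlafen protein that mouse T cells and monocytes need to stay quiescent, rose, and so did Bst2, which encodes tetherin, a protein that holds budding virus at the cell surface. Samhd1, Ifitm3 and Ifi27l2a fell. This made 2 of 30 members higher (6.67%) and 3 lower (10%), beside 12.1% of all genes higher and 12.1% lower, so these shares were no larger than the background. The median member changed by -0.08 and the median gene by -0.05.

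After 22 h most tested members were lower with BafA1. Of the 30, 17 fell and 2 rose, which is 56.7% lower and 6.67% higher, beside 22% of all genes lower and 17.9% higher. The 2 that rose were again Slfn2 and Bst2. Those that fell included all 3 transcription factors in the set, 3 of 5 tested sensors and editors, and 3 of 5 nucleotide and nuclear restriction factors. The median member changed by -0.96, against -0.06 for all genes, and 86.7% of members had a change below 0, against 52.9% of all genes. Over all 4 times 20 members were called at least once, 10 of the tested ones at no time, and Samhd1 alone at 7, 14 and 22 h. The share of all genes called at least once is not given here, so these counts are not set against a background. At 22 h alone it was already 22% lower and 17.9% higher.

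**Figure D1:**
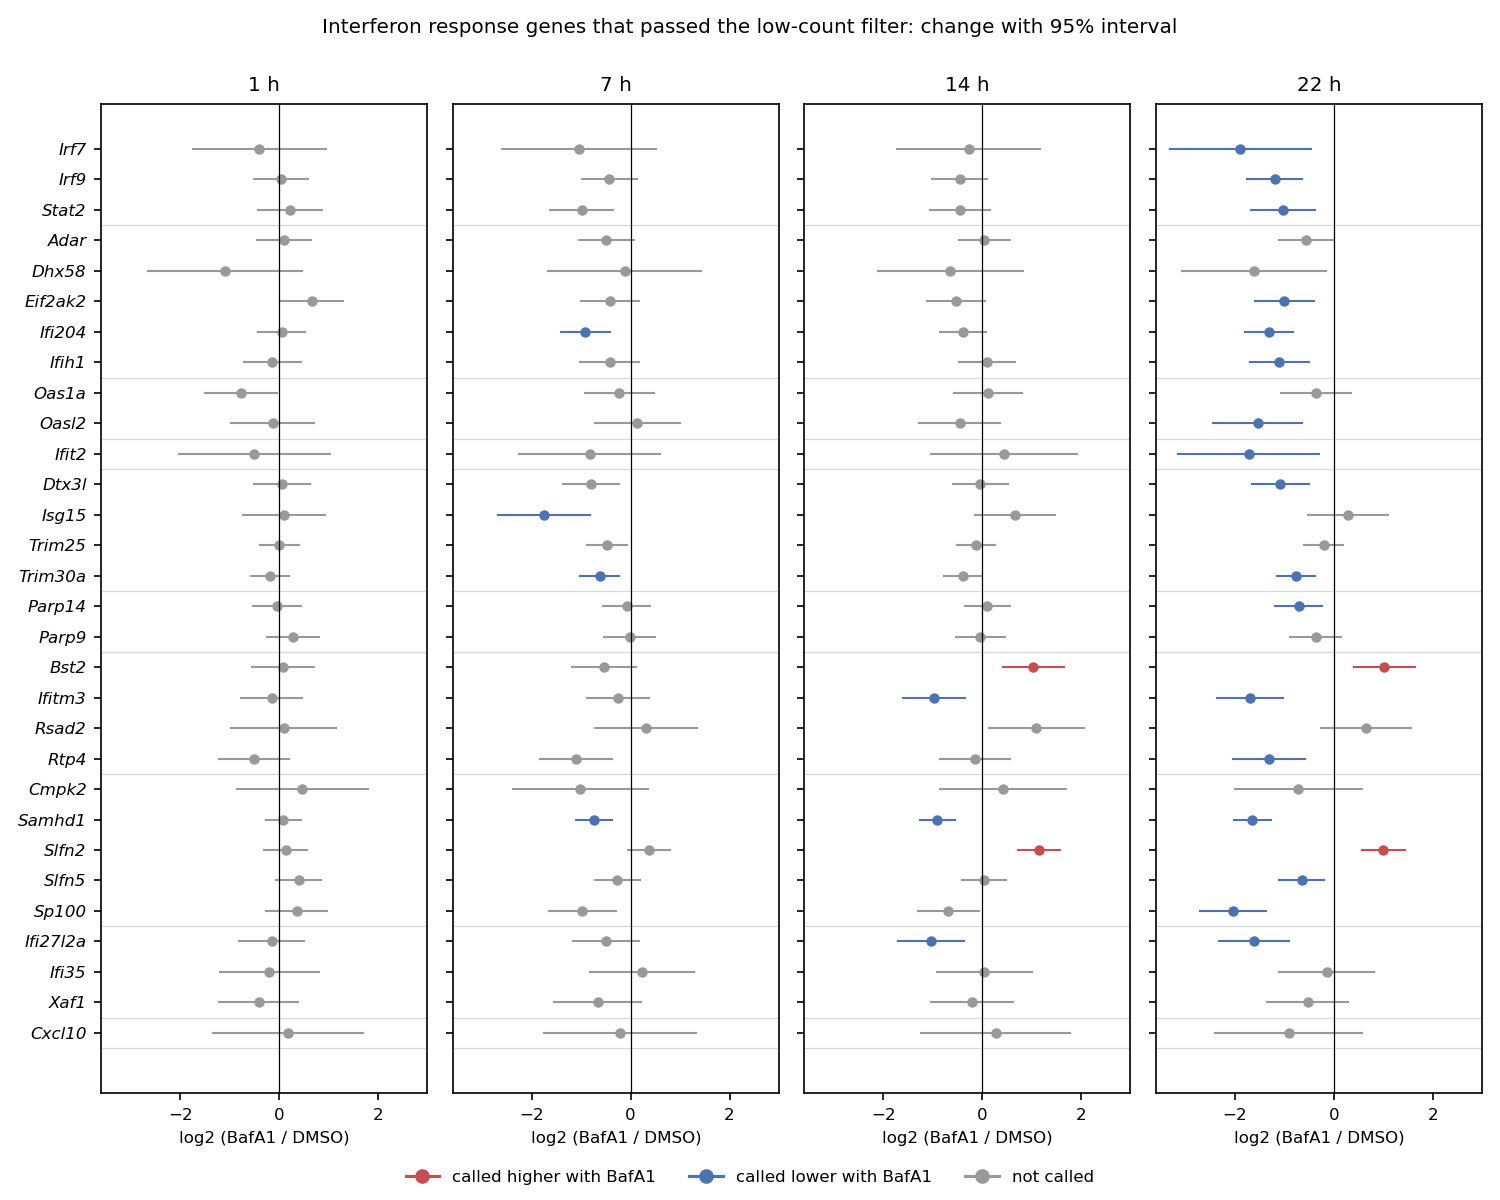
Log2 change of BafA1 over DMSO (x axis) for each of the 30 tested members (y axis) at 1, 7, 14 and 22 h, with its 95% interval. Red marks members called higher, blue those called lower and grey those not called; at 22 h 17 points are blue and 2, Slfn2 and Bst2, are red.

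Summed over the 40 members, the level at 22 h was 745 ± 94.6 CPM with BafA1 and 1015 ± 201 CPM with DMSO (SD, n = 3 each). BafA1 replicate 1, with 853 CPM, was above DMSO replicate 3, with 784 CPM, so the groups overlapped. Within each replicate number the BafA1 sum was the lower, with 853 against 1148 CPM, 681 against 1114 CPM and 699 against 784 CPM. Over all 40 members the means at 14 h were 946 CPM with BafA1 and 927 CPM with DMSO, and at 7 h 766 and 1004 CPM. Slfn2, which was called higher at 14 and 22 h, is part of these sums. Without it the means at 22 h were 559.5 CPM with BafA1 and 923 CPM with DMSO, at 14 h 724 and 828 CPM, and at 7 h 637 and 904 CPM. Slfn2 was picked for its rise in these same data, so leaving it out favours a lower BafA1 sum.

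Markers of microglia and of other cells fell over the same times. Of 16 microglial markers 3 were lower at 7 h, 11 at 14 h and 12 at 22 h, with a median change of -1.82 at 22 h, and their summed level at 22 h was 3285 to 4555 CPM with BafA1 against 7162 to 10334 CPM with DMSO. Of 12 tested oligodendrocyte lineage markers 11 were lower at 22 h, with sums of 97.0 to 127 CPM against 615 to 760 CPM. Of 9 astrocyte markers 6 were lower, with sums of 42.5 to 113 CPM against 189 to 339 CPM, and of 4 neuronal markers 3, with 25.7 to 35.7 CPM against 186 to 246 CPM. Of 3 tested border macrophage markers 2 were lower, with 413 to 638 CPM against 625 to 722 CPM, while 0 of 4 fibroblast and vascular markers were called, with 10.8 to 61.8 CPM against 17.1 to 74.9 CPM. The list for plasmacytoid dendritic cells, the main interferon producers of blood, shares Bst2 and Irf7 of its 3 tested genes with the set. At 22 h 2 of the 3 were lower and 1 higher, with sums of 251 to 314 CPM with BafA1 against 895 to 1065 CPM with DMSO. Most of that sum was the third, Tcf4, with 207, 164 and 184 CPM with BafA1 and 819, 993 and 975 CPM with DMSO. Of its untested genes Spib and Klk1, at least 1 was at 0 in each group. Siglech and Ccr9, also untested, had counts in every group, with sums of 70 and 55 over the 24 libraries. The part of these shifts in the fall of the response genes was not tested.

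**Figure D2:**
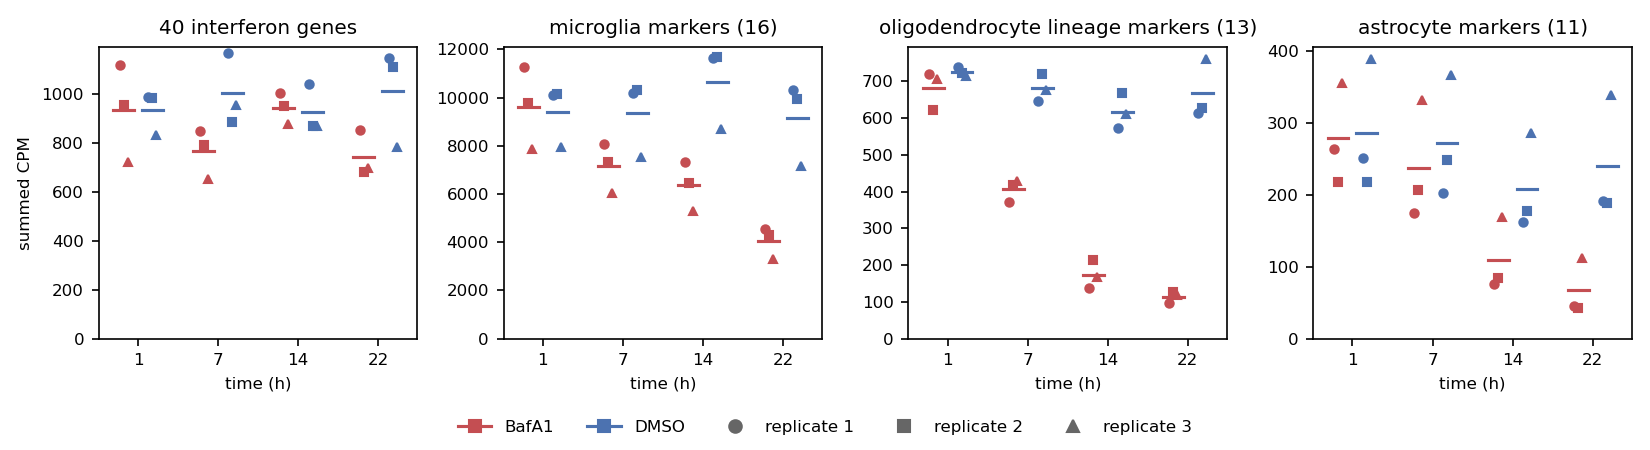
Summed CPM per library (y axis, linear) by time in h (x axis) for the 40 members, 16 microglial markers, 13 oligodendrocyte lineage markers and 11 astrocyte markers, with a bar at the group mean. At 22 h the member sums averaged 745 CPM with BafA1 and 1015 CPM with DMSO, and the marker sums did not overlap between the treatments.

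The transcription factors in the set were lower with BafA1 at 22 h, all 3 of 3. Irf9, the subunit that recognises the ISRE, had 47.5, 28.9 and 39.99 CPM with BafA1 and 58.3, 142 and 75.8 CPM with DMSO, a change of log2 -1.20 ± 0.27 SE, adjusted p = 0.00104. The groups did not overlap, although DMSO replicate 2 stood well above the other DMSO libraries. Irf9 overlaps Rnf31 on the same strand, so part of its tags could belong to that neighbour. Stat2, its partner in the complex, had 8.21, 4.81 and 5.45 CPM with BafA1 and 11.2, 13.2 and 14.2 CPM with DMSO (log2 -1.03 ± 0.31 SE, adjusted p = 0.0113), also without overlap. Irf7, the factor that amplifies interferon transcription, had 2.82, 3.21 and 3.33 CPM with BafA1 and 9.61, 21.8 and 5.32 CPM with DMSO (log2 -1.89 ± 0.69 SE, adjusted p = 0.0316). Every BafA1 library was below every DMSO library, and DMSO replicate 2 was again the highest. At 7 h Stat2 had 11.4, 5.60 and 6.42 CPM with BafA1 and 14.8, 15.001 and 18.4 CPM with DMSO, below DMSO in each library, with log2 -0.99 ± 0.31 SE, adjusted p = 0.0536, and it passed with the replicate block (log2 -1.003, adjusted p = 0.0285). At 14 h none of the 3 was called, with changes of -0.46 for Irf9, -0.27 for Irf7 and -0.44 for Stat2.

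Irf9 was called at 22 h under each of the 14 alternatives tried. The Stat2 call ended with no low-count filter (0.129), without BafA1 22 h replicate 2 (0.0509) and without DMSO 22 h replicate 3 (0.0564), adjusted p in brackets, over a range of 0.00769 to 0.129. The Irf7 call ended by limma-voom (0.0738), without BafA1 22 h replicate 1, 2 or 3 (0.0912, 0.0665 and 0.0671) and without DMSO 22 h replicate 2 (0.189), over a range of 0.00356 to 0.189.

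Among the nucleic acid sensors and editors, 3 of 5 tested genes were lower at 22 h and none was higher. Ifi204, a mouse DNA sensor of the PYHIN family, was already lower at 7 h, with 33.0, 28.8 and 20.5 CPM with BafA1 and 59.2, 55.3 and 39.5 CPM with DMSO (log2 -0.92 ± 0.24 SE, adjusted p = 0.0169). At 22 h it had 25.1, 17.6 and 20.3 CPM with BafA1 and 62.1, 60.7 and 35.04 CPM with DMSO (log2 -1.31 ± 0.24 SE, adjusted p = 9.58e-05). At both times the highest BafA1 library was below the lowest DMSO library. At 14 h its change was -0.39 with adjusted p = 0.223. Ifih1 encodes MDA5, which senses long double-stranded RNA in the cytosol, and it had 14.6, 6.81 and 8.18 CPM with BafA1 and 25.9, 20.2 and 18.2 CPM with DMSO at 22 h (log2 -1.10 ± 0.29 SE, adjusted p = 0.00348). BafA1 replicate 1 was nearest to DMSO, and there was no overlap. Its change at 14 h was 0.10. Eif2ak2, which stops translation when it binds double-stranded RNA, had 5.13, 5.21 and 7.88 CPM with BafA1 and 12.8, 11.7 and 12.0 CPM with DMSO at 22 h (log2 -0.999 ± 0.29 SE, adjusted p = 0.0074). Again all BafA1 libraries lay below all DMSO libraries.

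Adar, which edits adenosine in double-stranded RNA, was not called at any time. By 22 h the gene had 11.8, 18.04 and 12.7 CPM with BafA1 and 22.1, 19.5 and 20.4 CPM with DMSO (log2 -0.56 ± 0.26 SE, adjusted p = 0.0899), without overlap. Dhx58, which encodes the MDA5 cofactor LGP2, had a change of log2 -1.61 ± 0.71 SE, adjusted p = 0.0714 at 22 h with overlapping groups, and it passed with the replicate block (log2 -1.57, adjusted p = 0.0446). The Ifi204 call at 7 h ended on thinned libraries (0.0552), without BafA1 7 h replicate 3 (0.113) and without DMSO 7 h replicate 1 or 2 (0.101 and 0.0635), over a range of 0.000781 to 0.113. The Eif2ak2 call at 22 h ended with no low-count filter (0.189), over a range of 0.00393 to 0.189. Ifi204 belongs to a cluster of close paralogs, so its tags may be split among them.

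The OAS and IFIT families, which bind viral RNA, were mostly too low to test. Oasl2, a member of the 2′-5′-oligoadenylate synthetase family, had 3.34, 4.01 and 4.24 CPM with BafA1 and 14.1, 8.57 and 10.2 CPM with DMSO at 22 h (log2 -1.54 ± 0.44 SE, adjusted p = 0.00659). The groups did not overlap, and the call held under each alternative, with adjusted p up to 0.049. Oas1a, which makes the messenger that activates RNase L, changed by -0.36 at 22 h and was not called. Ifit2, whose product binds AU-rich RNA, had 1.03, 1.20 and 1.82 CPM with BafA1 and 5.76, 4.67 and 3.10 CPM with DMSO at 22 h (log2 -1.72 ± 0.69 SE, adjusted p = 0.0496). Its adjusted p was the highest of the 19 calls at 22 h. The call ended by DESeq2 (0.0521), with no low-count filter (0.123), without BafA1 22 h replicate 1, 2 or 3 (0.151, 0.108 and 0.0665) and without DMSO 22 h replicate 1, 2 or 3 (0.178, 0.0864 and 0.0557), over a range of 0.0201 to 0.178. Among the untested, Ifit3b had 1 count over the 3 BafA1 libraries and 12 over the 3 DMSO libraries at 22 h, and Mx1 had 1 and 13. Both were called lower at 22 h when the low-count filter was dropped. Ifit3 and Ifit3b are near-identical copies and cannot be told apart with certainty by tags.

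In the ISG15 and ubiquitin system Isg15 and Trim30a were called at 7 h. Isg15, the ubiquitin-like protein that is attached to other proteins during the response, had 2.96, 3.20 and 2.81 CPM with BafA1 and 14.2, 6.09 and 9.66 CPM with DMSO at 7 h (log2 -1.76 ± 0.45 SE, adjusted p = 0.0145). The 3 BafA1 libraries were all below DMSO, but they held few Isg15 counts. In them a count of 3 stood for 1.27, 2.40 and 1.20 CPM. Over the 24 libraries the gene had between 3 and 46 counts in each. At 14 h Isg15 had 9.52, 10.9 and 7.77 CPM with BafA1 and 5.56, 4.58 and 7.32 CPM with DMSO (log2 0.67 ± 0.39 SE, adjusted p = 0.23), with BafA1 above DMSO in each library. At 22 h they were 10.5, 7.21 and 8.18 CPM with BafA1 and 11.5, 2.34 and 5.77 CPM with DMSO (log2 0.29 ± 0.39 SE, adjusted p = 0.584), and the groups overlapped. Isg15 was thus called at 7 h and at no later time. Trim30a, a mouse TRIM protein that restrains Toll-like receptor signalling, had 71.5, 76.8 and 59.4 CPM with BafA1 and 126, 97.0 and 94.4 CPM with DMSO at 7 h (log2 -0.62 ± 0.19 SE, adjusted p = 0.0482). Its 22 h libraries had 81.1, 53.3 and 54.8 CPM with BafA1 and 118, 121 and 84.3 CPM with DMSO (log2 -0.76 ± 0.19 SE, adjusted p = 0.00232). It did not overlap at either time. At 14 h it had a change of log2 -0.38 ± 0.19 SE, adjusted p = 0.146, and passed with the replicate block (log2 -0.39, adjusted p = 0.0191).

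Dtx3l, a ubiquitin ligase that works with PARP9, had 19.8, 16.8 and 15.8 CPM with BafA1 and 45.5, 41.3 and 24.4 CPM with DMSO at 22 h (log2 -1.08 ± 0.28 SE, adjusted p = 0.00297), with no overlap. At 7 h its values were 30.5, 15.2 and 19.7 CPM with BafA1 and 39.7, 38.9 and 38.2 CPM with DMSO (log2 -0.80 ± 0.28 SE, adjusted p = 0.0822), and it passed with the replicate block (log2 -0.81, adjusted p = 0.0144). Trim25, the ligase that activates the RNA sensor RIG-I, was among the most abundant members, between 44.6 and 95.5 CPM over all libraries. At 7 h it had 61.8, 66.4 and 44.6 CPM with BafA1 and 91.2, 74.1 and 72.03 CPM with DMSO (log2 -0.48 ± 0.20 SE, adjusted p = 0.166), with BafA1 below DMSO in each library, and it passed with the block (log2 -0.48, adjusted p = 0.0144). At 22 h it had 73.6, 73.7 and 53.9 CPM with BafA1 and 90.6, 81.0 and 59.9 CPM with DMSO (log2 -0.20 ± 0.19 SE, adjusted p = 0.411), with overlap. The Isg15 call at 7 h ended on thinned libraries (0.0751), without BafA1 7 h replicate 1 or 3 (0.0586 and 0.0648) and without DMSO 7 h replicate 1 (0.124), over a range of 0.00556 to 0.124. The Trim30a call at 7 h ended by limma-voom (0.0502), without BafA1 7 h replicate 1, 2 or 3 (0.0986, 0.0668 and 0.178) and without DMSO 7 h replicate 1 or 2 (0.257 and 0.067), over a range of 0.00152 to 0.257.

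The ADP-ribosyltransferase Parp14 had 19.5, 19.6 and 15.8 CPM with BafA1 and 37.1, 27.3 and 24.4 CPM with DMSO at 22 h (log2 -0.71 ± 0.23 SE, adjusted p = 0.015), without overlap. The call ended with no low-count filter (0.199), without BafA1 22 h replicate 3 (0.0706) and without DMSO 22 h replicate 1 (0.16), over a range of 0.00358 to 0.199. Parp9, the partner of Dtx3l, changed by -0.37 and was not called. Dtx3l and Parp9 overlap on opposite strands, and Parp14 overlaps a predicted transcript on its own strand.

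The membrane factors went both ways. Ifitm3, which sits in endosomal membranes and blocks virus entry there, had 31.3, 21.2 and 26.3 CPM with BafA1 and 62.2, 35.8 and 56.0 CPM with DMSO at 14 h (log2 -0.97 ± 0.31 SE, adjusted p = 0.0214). By 22 h the gene had 15.4, 11.2 and 22.4 CPM with BafA1 and 59.9, 53.7 and 46.6 CPM with DMSO (log2 -1.69 ± 0.32 SE, adjusted p = 0.000153). The groups were apart at both times, and at 7 h its change was -0.26. Bst2 had 93.8, 107 and 99.4 CPM with BafA1 and 53.1, 43.7 and 50.0 CPM with DMSO at 14 h (log2 1.04 ± 0.30 SE, adjusted p = 0.0114). Its 22 h libraries had 103, 81.8 and 93.6 CPM with BafA1 and 65.3, 43.6 and 26.2 CPM with DMSO (log2 1.03 ± 0.30 SE, adjusted p = 0.00837). All BafA1 libraries were above all DMSO libraries at these times. At 7 h Bst2 had 51.2, 34.4 and 36.9 CPM with BafA1 and 74.9, 48.3 and 55.8 CPM with DMSO (log2 -0.54 ± 0.31 SE, adjusted p = 0.378), with overlap. Rtp4, a chaperone of the Golgi that is strongly induced by interferon, had 13.6, 10.8 and 9.09 CPM with BafA1 and 33.0, 31.9 and 19.1 CPM with DMSO at 22 h (log2 -1.31 ± 0.35 SE, adjusted p = 0.00444). These groups did not overlap.

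At 7 h Rtp4 had 13.1, 21.6 and 14.1 CPM with BafA1 and 46.5, 26.3 and 28.5 CPM with DMSO (log2 -1.11 ± 0.35 SE, adjusted p = 0.0546), below DMSO in each library, and it passed with the replicate block (log2 -1.09, adjusted p = 0.00452). Rsad2, which encodes viperin, was not called, with log2 1.10 ± 0.47 SE, adjusted p = 0.0899 at 14 h. Without the low-count filter it passed there (log2 1.19, adjusted p = 0.0283). The Ifitm3 call at 14 h ended without BafA1 14 h replicate 2 or 3 (0.107 and 0.0614) and without DMSO 14 h replicate 1 or 3 (0.0954 and 0.0806), over a range of 0.00139 to 0.107. The Bst2 call at 14 h ended without DMSO 14 h replicate 2 (0.0518), over a range of 1.2e-06 to 0.0518. At 22 h it ended without DMSO 22 h replicate 3 (0.0594), over a range of 5.68e-07 to 0.0594. Rtp4 overlaps a transcript on its own strand.

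**Figure D3:**
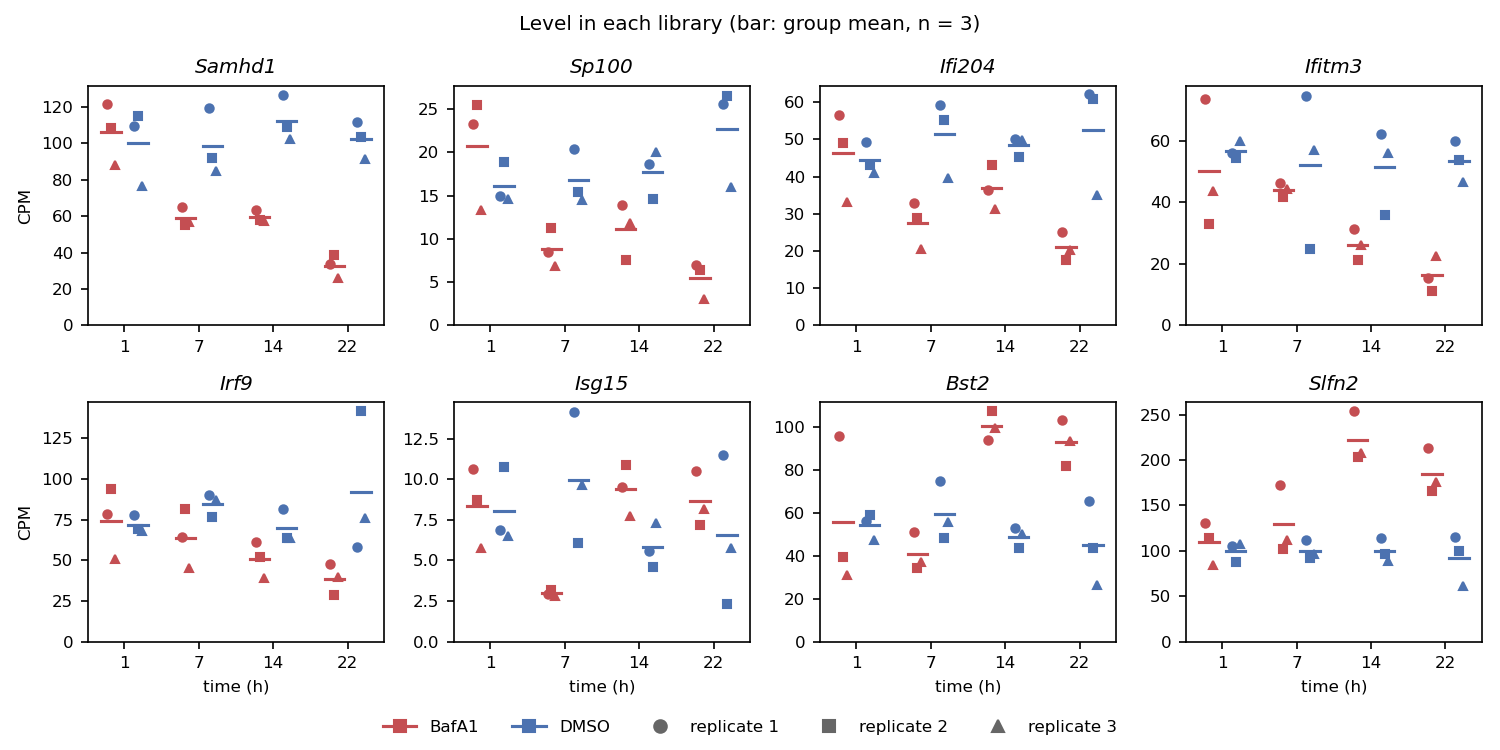
CPM of each library (y axis, linear) by time in h (x axis) for Samhd1, Sp100, Ifi204, Ifitm3, Irf9, Isg15, Bst2 and Slfn2, with a bar at the mean of the 3 libraries of a group and marker shapes for replicate numbers. Samhd1 with BafA1 was at 26.1 to 38.9 CPM at 22 h, against 91.4 to 112 CPM with DMSO, while Slfn2 and Bst2 were above DMSO at 14 and 22 h.

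The nucleotide and nuclear restriction factors held the lowest p-value of the set. Samhd1, which hydrolyses deoxynucleotides and so limits reverse transcription, had 65.2, 55.2 and 57.0 CPM with BafA1 and 119, 91.9 and 84.8 CPM with DMSO at 7 h (log2 -0.74 ± 0.18 SE, adjusted p = 0.00916). At 14 h it had 63.6, 58.1 and 57.3 CPM with BafA1 and 126, 109 and 102 CPM with DMSO (log2 -0.91 ± 0.17 SE, adjusted p = 0.000286). At 22 h it had 33.6, 38.9 and 26.1 CPM with BafA1 and 112, 104 and 91.4 CPM with DMSO (log2 -1.64 ± 0.18 SE, adjusted p = 8.68e-08). The groups were apart at each of these times. At 7 h DMSO replicate 1 stood above the other DMSO libraries. Without it the 7 h call ended (adjusted p = 0.0958 by edgeR's quasi-likelihood test). Sp100, a component of PML nuclear bodies, had 6.93, 6.41 and 3.03 CPM with BafA1 and 25.6, 26.5 and 16.0 CPM with DMSO at 22 h (log2 -2.04 ± 0.32 SE, adjusted p = 1.65e-05), with no overlap. Earlier its changes were -0.98 at 7 h and -0.69 at 14 h, not called, and called with the replicate block (log2 -0.97, adjusted p = 0.0302 at 7 h; log2 -0.71, adjusted p = 0.041 at 14 h).

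Slfn2 was the most abundant member with BafA1, and with Bst2 it was 1 of 2 members that rose. It had 254, 203 and 207 CPM with BafA1 and 114, 96.2 and 88.5 CPM with DMSO at 14 h (log2 1.16 ± 0.21 SE, adjusted p = 0.000151). By 22 h the gene had 213, 166 and 176 CPM with BafA1 and 116, 99.7 and 60.8 CPM with DMSO (log2 1.01 ± 0.21 SE, adjusted p = 0.000427). The lowest BafA1 library was above the highest DMSO library at both times, and at 7 h its change was 0.37, not called. Its relative Slfn5 fell at 22 h, with 17.96, 15.6 and 15.1 CPM with BafA1 and 28.5, 26.5 and 21.7 CPM with DMSO (log2 -0.65 ± 0.22 SE, adjusted p = 0.0218). These groups did not overlap, but the call ended with no low-count filter (0.328), on thinned libraries (0.0546), without BafA1 22 h replicate 2 or 3 (0.0598 and 0.0733) and without DMSO 22 h replicate 1 or 2 (0.118 and 0.0511), over a range of 0.0144 to 0.328. Cmpk2, a mitochondrial nucleotide kinase, was not called, with changes between -1.02 and 0.47 over the 4 times. The Schlafen genes lie in a cluster of paralogs, so tags may be shared.

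Of the other induced proteins, Ifi27l2a, a small mitochondrial and membrane protein, fell at 14 and 22 h. It had 15.3, 13.03 and 9.11 CPM with BafA1 and 34.9, 22.5 and 20.0 CPM with DMSO at 14 h (log2 -1.04 ± 0.33 SE, adjusted p = 0.0207). Its 22 h libraries had 8.98, 8.02 and 8.18 CPM with BafA1 and 29.1, 36.6 and 13.7 CPM with DMSO (log2 -1.62 ± 0.34 SE, adjusted p = 0.000528). The groups did not overlap at either time. The 14 h call ended on thinned libraries (0.0618), without BafA1 14 h replicate 2 or 3 (0.0543 and 0.107) and without DMSO 14 h replicate 1 (0.134), over a range of 0.00154 to 0.134. Ifi35 stayed between -0.20 and 0.23 over the 4 times and Xaf1, a cofactor of apoptosis, between -0.67 and -0.20, neither called. Cxcl10, the T cell chemokine of the response, was not called, with 2.57, 2.40 and 10.6 CPM with BafA1 and 13.5, 4.67 and 10.2 CPM with DMSO at 22 h (log2 -0.91 ± 0.72 SE, adjusted p = 0.33) and overlap.

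Whether the effect of BafA1 changed over time was tested directly as a difference of the BafA1 changes. Across the 4 times, 8 of 30 members had a treatment by time term with adjusted p under 0.05 in edgeR's quasi-likelihood test, beside 21.2% of all genes. They were Samhd1, Sp100, Ifi204, Bst2, Isg15, Slfn2, Eif2ak2 and Ifitm3. A share of 8 in 30 is near that of all genes. With the replicate block 13 members passed this term, and more of all genes did too, as counted in the last section. This term was refitted with RLE scaling, the replicate block, thinned libraries and each library left out, which makes 27 alternatives. Samhd1, Sp100, Ifi204 and Bst2 passed under each of these. Isg15 lost the call in 4, Slfn2 in 2, Ifitm3 in 7 and Eif2ak2 in 8 of them, with adjusted p up to 0.0915, 0.0554, 0.094 and 0.124 in that order.

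Between 7 and 14 h the BafA1 effect on Isg15 turned upward by 2.43 ± 0.60 SE, adjusted p = 0.0289, so 1 member was higher and 0 lower, beside 0.735% and 1.53% of all genes. At an unadjusted p under 0.05 there were 3 members. With the replicate block Bst2 (log2 1.58, adjusted p = 0.00287) and Slfn2 (log2 0.79, adjusted p = 0.0126) passed too. More of all genes also passed with the block, as counted in the last section. The Isg15 call ended on thinned libraries (0.0716), without BafA1 14 h replicate 1 or 2 (0.0597 and 0.0806), without BafA1 7 h replicate 1, 2 or 3 (0.0615, 0.0584 and 0.075), without DMSO 14 h replicate 1 or 2 (0.0541 and 0.0829) and without DMSO 7 h replicate 1 (0.124).

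Between 14 and 22 h the log2 change of all 30 members had a lower value at the later time, against 54.8% of all genes, with a median difference of -0.71 against -0.07. By edgeR's quasi-likelihood test 0 were called in either direction, beside 0.419% of all genes higher and 1.57% lower. At an unadjusted p under 0.05 there were 9 members, and DESeq2 called 0. With the replicate block 6 were called lower, Samhd1, Ifi204, Dtx3l, Sp100, Rtp4 and Ifih1. More of all genes were also called with the block, as counted in the last section. The changes at 14 and 22 h use separate libraries. All 30 members were read in the same libraries, however, and are not 30 separate observations.

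Between 7 and 22 h the effect turned upward for Isg15 by 2.05 ± 0.60 SE, adjusted p = 0.0208, and for Bst2 by 1.57 ± 0.43 SE, adjusted p = 0.0144. The difference was -1.44 ± 0.44 SE, adjusted p = 0.0277 for Ifitm3, and for Samhd1 it was -0.91 ± 0.25 SE, adjusted p = 0.0155. That is 2 members higher and 2 lower, 6.67% each, beside 5.94% and 10.1% of all genes. With the replicate block 7 members were called, adding Oasl2 (log2 -1.67), Ifi27l2a (-1.07) and Slfn2 (0.67). The shares of all genes above are from the fit without the block, which called more of all genes too, as counted in the last section. The Isg15 call ended on thinned libraries (0.0575), without BafA1 22 h replicate 1 (0.0568) and without DMSO 7 h replicate 1 (0.0814), the Bst2 call without DMSO 7 h replicate 1 (0.0528), and the Samhd1 call without BafA1 22 h replicate 3 (0.0566). The Ifitm3 call ended without BafA1 22 h replicate 1 or 2 (0.0665 and 0.0749), without BafA1 7 h replicate 1 or 3 (0.0545 and 0.0532), without DMSO 22 h replicate 1 (0.06) and without DMSO 7 h replicate 2 (0.0594).

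Other lists of the pathway are given for 22 h beside the 22% of all genes called lower, the 17.9% called higher and the median gene at -0.06. Of 54 tested genes from a further list of interferon-stimulated genes, 22 were lower and 5 higher, and 27 were not called, with a median of -0.64. The lowest were Fcgr1 (log2 -2.74 ± 0.29), the high-affinity IgG receptor, Mndal (-2.70 ± 0.41), Ifitm2 (-2.68 ± 0.36) and Ly6e (-2.48 ± 0.35). Of 15 receptor and JAK-STAT genes 9 were lower and 1 higher. Ifngr1 (-1.86 ± 0.19), a chain of the interferon gamma receptor, and the phosphatase Ptpn6 (-1.77 ± 0.24) were among the lower ones, as was the feedback inhibitor Socs3 (-1.13 ± 0.24). Of 6 tested genes in a list around the further interferon regulatory factors 3 were lower, Irf5 (-1.41 ± 0.22), Irf2 (-1.16 ± 0.19) and Irf8 (-0.995 ± 0.22). Irf1 was higher at 14 h (0.51 ± 0.19). The 6 include Irf2bp1 and Irf2bp2, which encode IRF2-binding proteins and not such factors, and neither was called.

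Upstream of interferon, 11 of 28 tested sensing genes were lower and 5 higher at 22 h, a share of higher calls equal to the 17.9% of all genes. Sting1, the adaptor of cytosolic DNA sensing, had 13.9, 10.8 and 11.2 CPM with BafA1 and 65.7, 71.7 and 54.5 CPM with DMSO (log2 -2.40 ± 0.23). The endosomal receptor Tlr8 (-4.25 ± 0.64) and the DNA exonuclease Trex1 (-3.62 ± 0.55) were lower too, and so was Ifi203 (-1.96 ± 0.50), a relative of Ifi204. Of 8 tested guanylate-binding and immunity-related GTPases 4 were lower, among them Gvin1 (-2.42 ± 0.24), Gbp9 (-2.21 ± 0.73) and Igtp (-1.43 ± 0.33), and Gbp2 was higher (1.76 ± 0.57). These 5 calls became 2 on thinned libraries or without DMSO 22 h replicate 1, and 3 without BafA1 22 h replicate 1 or 2. Of 15 MHC class I and immunoproteasome genes 3 were higher and 2 lower at 22 h, near the shares of all genes. H2-Q7, a non-classical heavy chain, was higher by 2.47 ± 0.72, and H2-D1, a classical one, by 0.95 ± 0.18. Psmb9, a subunit of the immunoproteasome, changed by -1.19 ± 0.42, and H2-M3 by 1.20 ± 0.38 at 14 h. Of 20 early NF-kB response genes 10 were higher and 1 lower at 14 h, beside 12.1% of all genes each way, and 4 were higher and 5 lower at 22 h. At 14 h Cxcl2 (2.33 ± 0.24), Tnfaip3 (2.14 ± 0.29) and Tnf (1.67 ± 0.28) were higher, and Il1b was lower at 22 h (-4.65 ± 0.41). Of 4 tested interferon-linked chemokines 1 was higher at 22 h, Cxcl16 (0.60 ± 0.15), while Ccl2 was not called (0.90 ± 0.69).

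**Figure D4:**
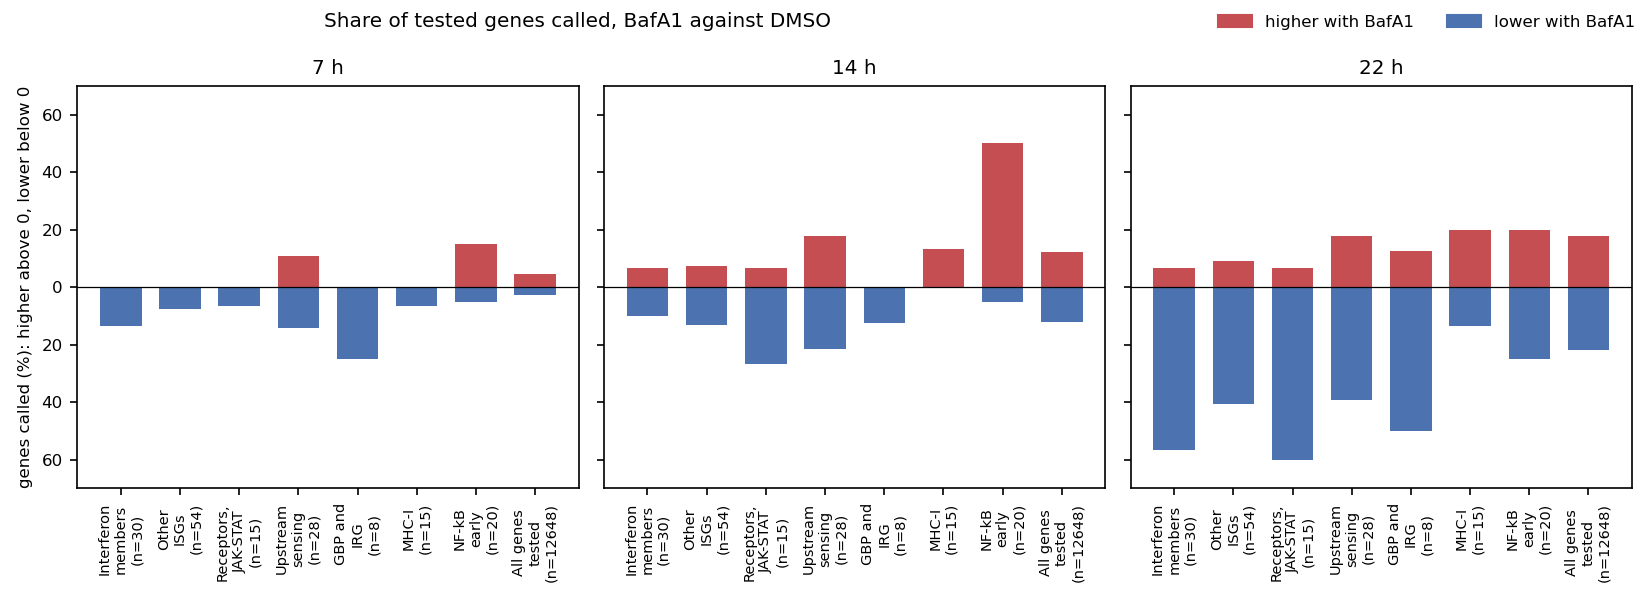
Percent of tested genes called higher (bars above 0) and lower (bars below 0) with BafA1 at 7, 14 and 22 h for the 30 tested members, 6 further lists and all 12648 genes. At 22 h the members had 56.7% lower, against 22% of all genes.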

How the data were processed

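RNA of 24 libraries, 3 in each of 8 groups, was read as 3′ tags with molecular identifiers. The deposited table gives estimated counts per gene, which the authors made with Salmon on GRCm39, per the submitters' processing notes; no source used here states the annotation or the tool versions. Of the values above 0, 37.1% were not whole, and all were rounded. The authors' deposited log2 CPM were not tested: they matched log2 CPM recomputed from the counts with a prior count of 2 within 0.00121. No pair of libraries was identical, and 0 per-sample columns were left unused.

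Genes were kept with edgeR's filterByExpr (12648 of 56980, the rest holding 0.699% of counts) and scaled by TMM. edgeR 4.0.16 in R 4.3.3 was fitted on all 24 libraries with 1 mean per group and quasi-likelihood F tests, adjusted by Benjamini-Hochberg over all tested genes; log2 fold changes are BafA1 over DMSO, with SE and 95% intervals from the fit. CPM are per TMM-scaled library. Floors of 3 counts cover counting error only. The scripts were tested on simulated data.

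Members called at any time, and the 5 with the highest level, are given in full. In each other list the genes with the largest called change are named. A gene that this rule picks is not reported here. The members and lists were chosen with earlier results of these data known. Alternatives were RLE scaling, no filter and a stricter one (20 counts in 3 libraries), DESeq2 1.42.0, limma-voom (limma 3.58.1), replicate number as a block, libraries thinned to the smallest, each time alone, and leaving out each library. Same-numbered libraries deviated together: the 12 correlations of their deviations from the group means ran from 0.143 to 0.339, against -0.303 to 0.114 for the 24 with different numbers. The numbers were thus taken to pair the samples in the replicate block, from the data and not from the labels. The main fit, with its SE and p-values, had no replicate term and did not use this pairing. Promoter windows were RefSeq's, on GRCm38.p6, and gene overlaps were read from a GENCODE annotation of GRCm38; no coordinates of GRCm39 are given.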

Additional observations from a re-analysis of the deposited data

Results flagged for a closer look

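In the main fit the BafA1 effect was called different between times, by a test of the difference itself, for the following members. The effect on Isg15 was higher at 14 h than at 7 h by 2.43 on the log2 scale, and higher at 22 h than at 7 h by 2.05. That on Bst2 was higher at 22 h than at 7 h by 1.57. For Ifitm3 the difference between 22 and 7 h was -1.44, and for Samhd1 it was -0.91. Between 7 and 22 h 6.67% of members were called each way, beside 5.94% of all genes higher and 10.1% lower. Those shares were near or below the background. Between 7 and 14 h 3.33% of members were called higher, beside 0.735% of all genes. Each of these calls ended under some alternative, as given above. Over all 4 times, the treatment by time term had an adjusted p of 0.00012 for Samhd1, 0.00209 for Sp100, 0.0149 for Ifi204, 0.0153 for Bst2, 0.018 for Isg15, 0.027 for Slfn2, 0.0287 for Eif2ak2 and 0.0324 for Ifitm3 in edgeR's quasi-likelihood test. The term passed for 8 of 30 members, beside 21.2% of all genes, so the share was near the background. Isg15 lost it in 4 of 27 alternatives, Slfn2 in 2, Ifitm3 in 7 and Eif2ak2 in 8. Groups of 3 libraries were not searched for single libraries that stand apart.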

How the results depend on the processing

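No tested member changed direction where it was called, under any alternative run. Of the members called, 0 of 4 at 7 h, 2 of 5 at 14 h and 12 of 19 at 22 h passed under every alternative. With the replicate block the members called were 9 against 4 at 7 h, 7 against 5 at 14 h, 20 against 19 at 22 h, 3 against 1 for the change between 7 and 14 h, 6 against 0 between 14 and 22 h, 7 against 4 between 7 and 22 h, and 13 against 8 for treatment by time. Between 7 and 14 h RLE scaling and DESeq2 each called 2. Leaving out each library in turn, members called ranged from 0 to 0 at 1 h, 0 to 4 at 7 h, 3 to 6 at 14 h and 15 to 18 at 22 h; from 0 to 1 between 7 and 14 h, 0 to 1 between 14 and 22 h and 2 to 5 between 7 and 22 h; from 5 to 10 for treatment by time; and 0 to 0 in the comparisons of DMSO times. Over all genes, the block called 1555 against 903 at 7 h, 891 against 286 between 7 and 14 h, 789 against 251 between 14 and 22 h, 3225 against 2023 between 7 and 22 h, 4147 against 2686 for treatment by time, and 37 against 19 and 163 against 51 for DMSO at 14 and 22 h. DESeq2 called 435 between 7 and 14 h and 428 between 14 and 22 h, thinned libraries 162 between 14 and 22 h, no filter 26 at 1 h, and the fit without DMSO 7 h replicate 1 573 at 7 h. Of 504 counts for the other lists, 57 moved by over 1.5 times. The causes were not tested. Depth limits the 10 untested members, for which a count of 3 stood for up to 2.4 CPM.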
